A study of Mus musculus with 3 samples.

Results

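The levels of 10 genes for leukocyte adhesion molecules, of 32285 genes measured, were followed across the cell classes of the mouse aorta and across 3 genotypes. The genes were taken as a list by symbol and not by a filter on their values, but the list was chosen with earlier results of these data known. They are the selectin genes Selp and Sele, the genes Icam1, Icam2 and Vcam1 for immunoglobulin-type ligands of leukocyte integrins, and the genes Pecam1, Esam, F11r, Jam2 and Jam3 for molecules of the junctions between cells. All 10 had unique molecular identifiers (UMIs, each counted as 1 captured transcript) in every library.

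The cells came from male gene replacement mice on a C57BL/6J background, in which the mouse Apoe gene had been replaced at its own locus by human APOE2, APOE3 or APOE4, so that the human gene was common to every group. All mice ate a Western diet of 42% fat and 0.2% cholesterol for 16 weeks from the age of 12 weeks, and the aorta from arch to iliac bifurcation was digested with enzymes. The APOE2 library pooled cells of 6 mice, the APOE3 library cells of 5 and the APOE4 library cells of 7. With 1 library per genotype, no test between genotypes was possible, genotype and library cannot be told apart, and the interval given after a value is a 95% interval for counting error only.

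White blood cells leave the blood in steps that each use a different family of molecules. P-selectin and E-selectin, made by Selp and Sele, catch passing cells on activated endothelium. ICAM and VCAM proteins then hold them through their integrins, and PECAM-1, ESAM and the JAM proteins line the cell borders through which they pass. In atherosclerosis VCAM-1 and ICAM-1 are best known from endothelium over lesions, but smooth muscle cells and fibroblasts can make both.

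On GRCm38, Sele (chr1:164048234-164057677) and Selp (chr1:164115264-164150026) lay on the same strand of chromosome 1 with F11r (chr1:171437535-171464603) farther along. Icam1 (chr9:21015985-21028817), Jam3 (chr9:27097384-27155421) and Esam (chr9:37528078-37538319) lay on chromosome 9, and Icam2 (chr11:106377656-106388075) and Pecam1 (chr11:106654217-106750628) on chromosome 11. Vcam1 (chr3:116109949-116129688) and Jam2 (chr16:84774123-84825928) were each alone on their chromosome.

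Promoter sequence is shown for the best known cytokine-responsive members, Icam1 and Sele, because transcription of both is a classical response to NF-kB. RefSeq start sites were available here for 4 of the 10 genes, namely Selp, Sele, Icam1 and F11r. The 250 bases upstream of each start were read from RefSeq on GRCm38.p6, on the forward strand. Capitals mark the letters GGAANNTCC, a short form of the NF-kB site searched on both strands, and TATAAA.
Icam1, chr9:21015690-21015939: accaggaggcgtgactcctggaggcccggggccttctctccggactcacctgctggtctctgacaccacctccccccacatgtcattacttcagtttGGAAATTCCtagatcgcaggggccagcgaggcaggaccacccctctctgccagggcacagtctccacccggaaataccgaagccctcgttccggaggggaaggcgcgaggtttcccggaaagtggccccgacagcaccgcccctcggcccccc
Sele, chr1:164047984-164048233: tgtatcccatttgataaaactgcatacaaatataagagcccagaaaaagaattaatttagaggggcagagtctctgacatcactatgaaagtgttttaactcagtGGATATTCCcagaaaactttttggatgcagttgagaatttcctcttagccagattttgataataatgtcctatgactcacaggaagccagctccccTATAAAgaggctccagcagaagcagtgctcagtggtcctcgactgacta
In Icam1 the short form read GGAAATTCC, 153 to 145 bases before the start, and matched on both strands. In Sele the match was on the opposite strand and read GGATATTCC as printed, 145 to 137 bases before the start, and TATAAA lay 49 to 44 bases before it. Of 32851 promoters of this length 3.59% held GGAANNTCC and 12.4% held TATAAA, and neither the Selp nor the F11r window held GGAANNTCC. The full NF-kB consensus, present in 3.90% of promoters, was not found in the 4 windows. These matches describe letters only.

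Barcodes with at least 200 genes and under 20% mitochondrial UMIs were kept, which gave 11772 APOE2, 6737 APOE3 and 8248 APOE4 cells, with 168310501, 125105151 and 124926887 UMIs and medians of 12047, 17618 and 13521.5 UMIs per cell. The libraries shared 14 to 27 cell barcodes in pairs. Cells were clustered without the 10 genes, so that none of them helped to define a class, and clusters were named from marker lists that also lacked them. Smooth muscle-like cells numbered 7291, 4145 and 5512 in APOE2, APOE3 and APOE4, fibroblast-like cells 1216, 661 and 980, and endothelial-like cells 153, 32 and 39, while 8 clusters with 2404, 1731 and 1171 cells stayed unnamed. Endothelial-like cells had all 10 endothelial markers raised, yet they made up 1.30%, 0.475% and 0.473% of the cells and were shallow, with medians of 4706, 3322.5 and 3351 UMIs. Of the APOE2 endothelial-like cells, however, 2 held over 80000 UMIs, against 0 in APOE3 and APOE4. Levels are UMIs per 1000000 UMIs of the summed class (CPM). They are not divided by transcript length, and they are therefore compared between cells and not between genes.

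Over all cells, the selectins and Vcam1 were highest in the APOE2 library. Selp was at 5.45 CPM in APOE2, 0.440 in APOE3 and 0.624 in APOE4, and Sele was at 4.37, 0.288 and 0.128 CPM. Vcam1 was at 337, 115 and 82.2 CPM. Icam1 followed another order, with 38.3 CPM in APOE2, 16.3 in APOE3 and 41.4 in APOE4. Icam2 stood at 6.32, 1.37 and 1.98 CPM, and the junction genes differed less, for example Esam with 20.8, 23.4 and 20.7 CPM and F11r with 17.5, 14.7 and 14.6 CPM.

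The cells that held these UMIs differed between the genes and between the libraries. Endothelial-like cells held 87.3% of the Selp UMIs of APOE3 and 79.5% of those of APOE4, but 25.9% of those of APOE2. Vcam1 UMIs lay mainly in smooth muscle-like cells in APOE3 and APOE4, with 70.8% and 57.7%, against 25.8% in APOE2. Icam1 UMIs lay mainly in fibroblast-like cells, with 57.8% in APOE3 and 67.0% in APOE4, against 23.2% in APOE2. Even for Pecam1, a standard endothelial marker, endothelial-like cells held 21.9%, 4.56% and 4.29% of the UMIs and smooth muscle-like cells 42.6%, 62.7% and 66.8%. Endothelial-like cells also held 88.9% of the 36 Sele UMIs of APOE3. The UMIs of Vcam1, Icam1 and Pecam1 thus lay mostly outside endothelial-like cells in each library, whereas those of Selp in APOE3 and APOE4 and of Sele in APOE3 lay mostly inside them.

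**Figure D1:**
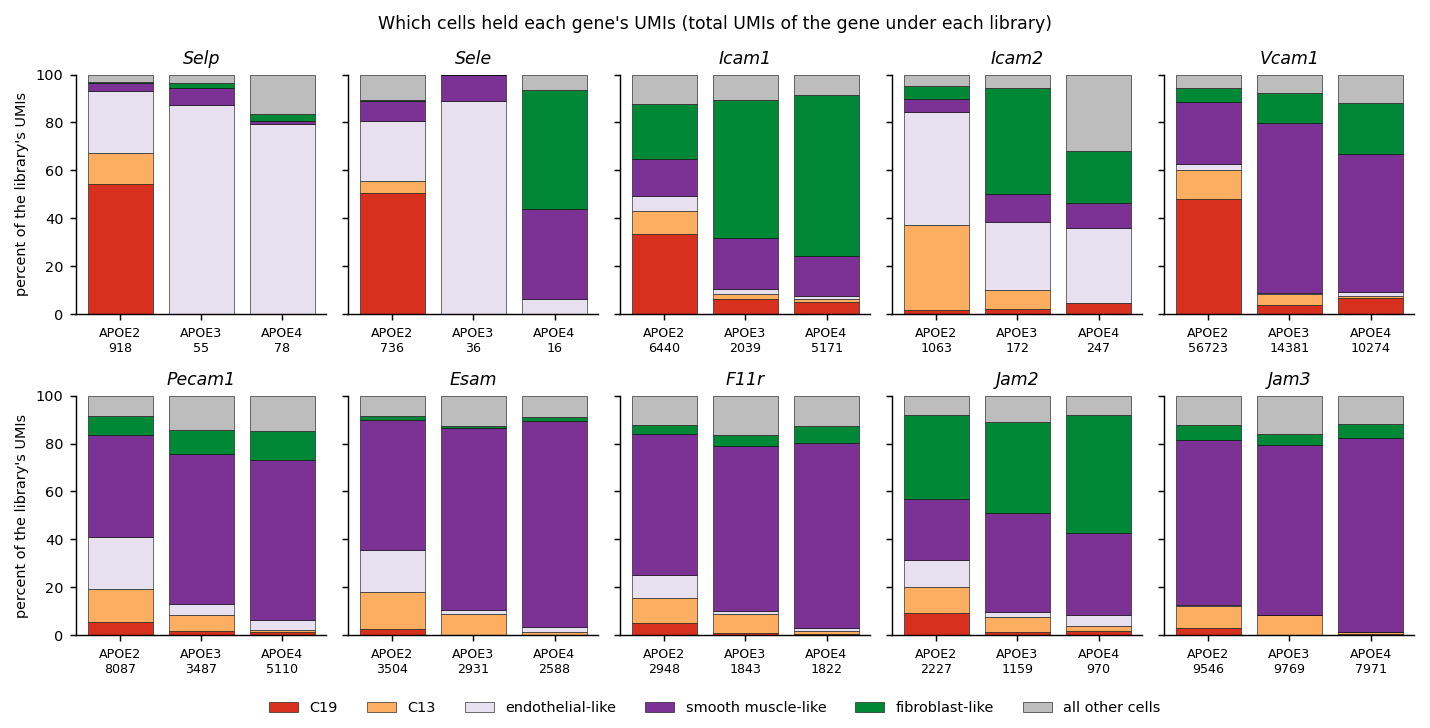
Percent of each library's UMIs of each adhesion gene that lay in cluster C19, cluster C13, the endothelial-like, smooth muscle-like and fibroblast-like cells and all other cells, stacked to 100% for APOE2, APOE3 and APOE4. In APOE2 a single small cluster, C19, held 48.1% of the Vcam1 and 54.2% of the Selp UMIs.

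The remaining APOE2 UMIs of Vcam1 and the selectins came in large part from 1 cluster that took no cell type name. This cluster, called C19, held 240 APOE2, 32 APOE3 and 27 APOE4 cells, or 2.04%, 0.475% and 0.327% of the cells. It had fewer than 3 raised markers of any type, kept none of the 10 smooth muscle markers, and was led by genes that included Spp1, Lcn2, Anxa8, Cxcl5, Timp1, and also Vcam1 and Selp, which had played no part in the clustering. Raised single markers were Dcn and Lum of fibroblasts, Flt1 and Ptprb of endothelium, and Sdc1 of plasma cells. Its APOE2 cells were deep, with a median of 25813.5 UMIs against 13870 and 14835 in APOE3 and APOE4, and 2.34% of its cells were among the 5% with the highest doublet scores. Because doublet calling had not worked in these libraries, this share cannot show whether C19 held mixed droplets.

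In C19, Vcam1 of the APOE2 cells was at 4372 CPM (4320 to 4424), against 942 (866 to 1023) for APOE3 cells and 1439 (1334 to 1549) for APOE4 cells. A single cell held 339 of the 704 APOE4 UMIs, and 1 cell each held 146 of 563 in APOE3 and 1371 of 27268 in APOE2. The levels without these cells were not computed, so the order of APOE4 over APOE3 is not firm. In the matching cluster of the libraries merged without integration, which shared 230 of the 299 cells, Vcam1 was at 4217, 1499 and 2722 CPM in 238, 9 and 16 cells, so that APOE3 and APOE4 lay closer to APOE2. A Vcam1 UMI was seen in 225 of 240 APOE2 cells, in 14 of 32 APOE3 cells and in 19 of 27 APOE4 cells. The cluster held 27268 of the 56723 Vcam1 UMIs of APOE2, or 48.1%, against 3.91% in APOE3 and 6.85% in APOE4. Icam1 was at 347 CPM (332 to 362), 218 (182 to 258) and 544 (480 to 613), so that for this gene the APOE4 cells were the highest. The number of C19 cells and the level per cell were both highest in APOE2 for Vcam1, and for Icam1 only the number was.

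Both selectins were found in C19 of APOE2 alone. Selp was at 79.8 CPM and Sele at 59.6 CPM there, from 498 and 372 UMIs. In APOE3 and APOE4 neither gene had a UMI in C19, where 3 counts, the limit that a count of 0 allows, would be 5.02 and 6.13 CPM. Selectin UMIs came from 80 of the 240 cells, 20 of which held both genes, and these cells had a median of 35332 UMIs against 20012 in the other C19 cells of APOE2. They also held 16934 of the cluster's Vcam1 UMIs and all 30 UMIs of the endothelial cadherin gene Cdh5, while the platelet genes Pf4 and Ppbp had 6 UMIs and 0 UMIs in the APOE2 cells of C19. The 10 endothelial markers together were at 108, 117 and 151 CPM in C19, against 4345, 3523 and 3460 CPM in endothelial-like cells. Lcn2, for the iron-binding protein lipocalin-2, and Cxcl5, for a neutrophil chemokine, had 12546 and 641 UMIs in C19 of APOE2 and 0 in C19 of both other libraries.

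With C19 left out, an alternative chosen after its values were seen, the level of Vcam1 over the remaining cells was 182 CPM for APOE2, 111 for APOE3 and 76.9 for APOE4, Selp at 2.59, 0.442 and 0.627, and Sele at 2.25, 0.289 and 0.129. Icam1 was then at 26.4, 15.3 and 39.4 CPM. The order of the libraries stayed as it was for these 4 genes, and the lead of APOE2 in Vcam1 and both selectins was smaller. A further unnamed cluster, C13, kept the smooth muscle markers beside raised endothelial Egfl7, Emcn and Cldn5 and held 234, 389 and 51 cells. In it Vcam1 was at 458, 71.5 and 67.0 CPM, Icam2 at 25.2 and 1.42 CPM with no UMI in APOE4, and Selp at 8.01 CPM in APOE2 with no UMI in APOE3 or APOE4, where 3 counts would be 0.328 and 2.26 CPM. Of its APOE2 cells, 46 held over 80000 UMIs, as did 2 of its APOE3 cells and none of its APOE4 cells. With the cells over 80000 UMIs left out, Vcam1 was at 424 CPM in APOE2 and 70.9 in APOE3, Icam2 at 18.4 and 1.34 CPM, and Selp at 7.24 CPM in APOE2 with no UMI in APOE3. APOE2 thus still stood highest in C13, but the remaining cells were not brought to equal depth. Without thinning, macrophage Lyz2 had a UMI in 89.7%, 33.9% and 13.7% of all C13 cells of APOE2, APOE3 and APOE4. Endothelial Cdh5 had one in 28.6% of the APOE2 cells and in none of the others. The part of mixed droplets in the APOE2 levels was not tested.

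**Figure D2:**
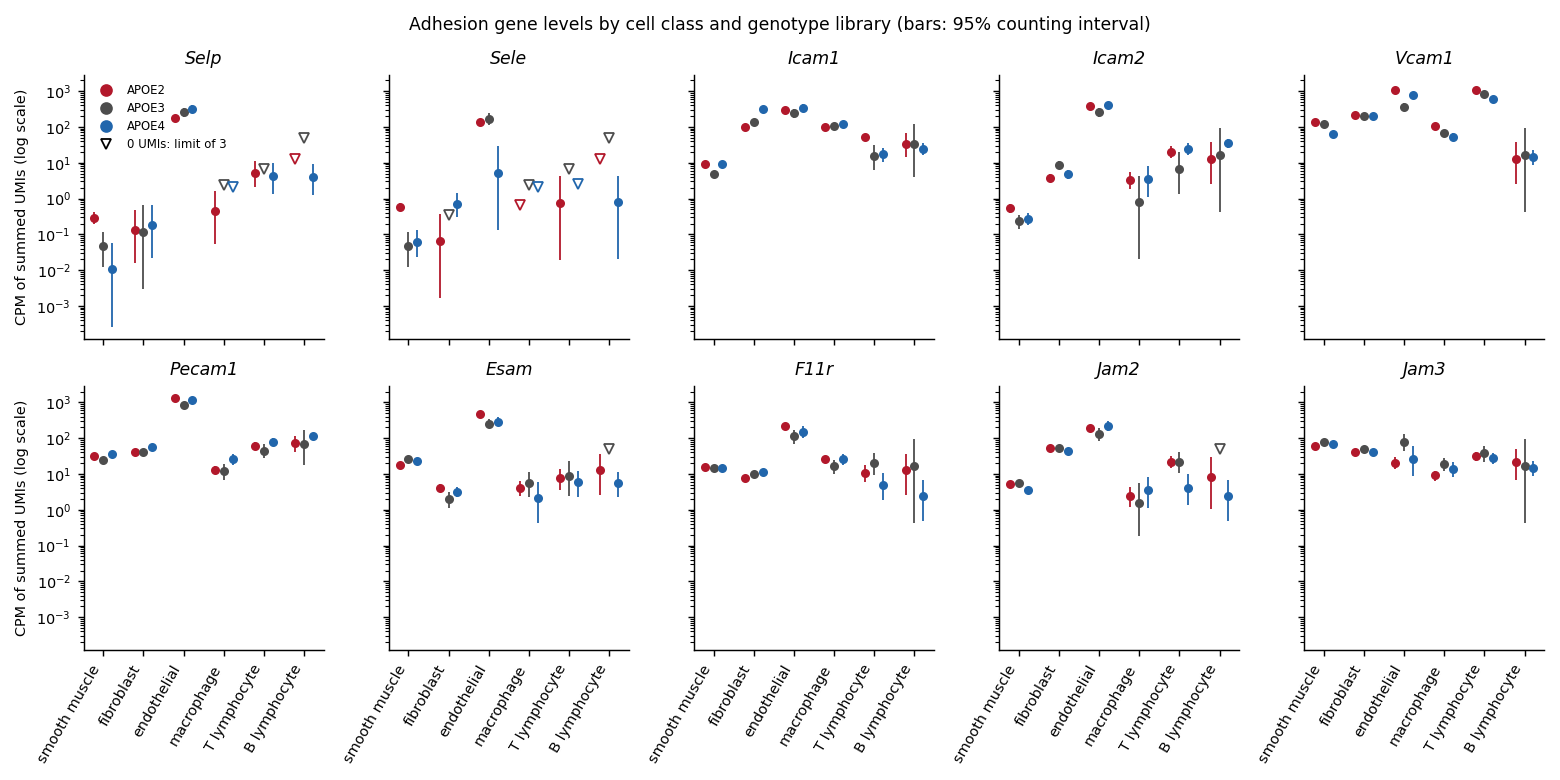
Level of each adhesion gene in CPM of the summed UMIs (log axis) in 6 cell classes, 1 point per genotype library with its 95% counting interval, where an open triangle marks the limit that 3 counts give for a class with 0 UMIs. Of the classes plotted, Icam2, Pecam1, Esam, F11r, Jam2 and both selectins were highest in endothelial-like cells, whereas Jam3 was at 61.1 to 80.0 CPM in smooth muscle-like cells and at 40.6 to 49.7 CPM in fibroblast-like cells.

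Selp, for P-selectin, which platelets and endothelium store and bring to their surface, was restricted in the named wall classes almost to endothelial-like cells. It had 238 UMIs there in APOE2, 48 in APOE3 and 62 in APOE4, or 181 (158 to 205), 254 (187 to 337) and 327 (251 to 419) CPM. These UMIs lay in 36, 5 and 6 cells. In APOE3, 1 cell held 37 of the 48 UMIs and in APOE4, 1 cell held 40 of the 62, and without these cells the levels were 61.1 and 135 CPM. The log2 ratio of APOE4 to APOE2 of 0.86 turned to -0.13 when the top cell of each library was left out, so that the order of the libraries rested on single cells.

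Sele, for E-selectin, which endothelium makes only on activation, had 185, 32 and 1 UMIs in endothelial-like cells of APOE2, APOE3 and APOE4. This gave 140 (121 to 162), 169 (116 to 239) and 5.27 (0.134 to 29.4) CPM. The UMIs lay in 17 cells of APOE2, in 2 of APOE3 and in 1 of APOE4, and 1 APOE3 cell held 26 of 32. Sele in APOE4 was thus below both other libraries by count, with a log2 ratio to APOE2 of -4.73, while the number of cells with the transcript was small throughout. The APOE3 endothelial-like cells with the most Selp, Sele, Icam1 and Vcam1 each held 9031 UMIs in all. Those with the most Selp and Icam1 in APOE4 each held 27112. Such top cells may be the same cell, so the single-cell counts of these genes may not be independent.

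Outside endothelial-like cells the wall classes held few selectin UMIs. In fibroblast-like cells Selp had 2, 1 and 2 UMIs and Sele 1, 0 and 8. Smooth muscle-like cells had 31, 4 and 1 UMIs of Selp and 62, 4 and 6 of Sele, among 107746145, 86720189 and 95672476 UMIs of the class. The APOE2 excess seen in C19 and C13 was thus present at a far lower level in named smooth muscle-like cells too. Endothelial Cdh5 was also highest in APOE2 there, with 26, 1 and 1 UMIs. The part of endothelial RNA in these selectin counts was not tested.

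Icam1, for the ligand of the leukocyte integrins LFA-1 and Mac-1, differed most clearly between the libraries in fibroblast-like cells. Its APOE2 level was 98.5 CPM (93.5 to 104), its APOE3 level 137 (130 to 145) and its APOE4 level 314 (304 to 325), from 1492, 1178 and 3467 UMIs. The log2 ratio was 1.20 (1.10 to 1.29) for APOE4 to APOE3, 1.67 (1.59 to 1.76) for APOE4 to APOE2 and -0.48 (-0.59 to -0.37) for APOE2 to APOE3. The intervals of the 3 libraries did not overlap, and APOE4 stood highest.

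An order of APOE4 over APOE3 over APOE2 was seen in both fibroblast-like clusters. In C5 Icam1 was at 109, 146 and 352 CPM in APOE2, APOE3 and APOE4, and in C11 at 87.3, 119 and 195 CPM. After every cell was thinned to 1000 UMIs, a UMI of Icam1 was found in 9.79%, 10.4% and 24.0% of fibroblast-like cells, with an APOE2 interval up to 11.6% and an APOE4 interval from 21.3%, so that more cells carried the transcript in APOE4. Unthinned, the shares were 47.6%, 50.7% and 64.9%. Cells with at least 10 UMIs numbered 20 of 1216, 26 of 661 and 93 of 980. As a background for shares, erythroid-like cells had no Icam1 UMI in 68, 5 and 26 cells, which allows shares of up to 4.41%, 60% and 11.5%, at medians of 6201, 11314 and 8018 UMIs against 10590.5, 11351 and 9902 in fibroblast-like cells. Markers of other cells were also counted in the fibroblast-like class. The 10 smooth muscle markers summed to 4201, 5857 and 5255 CPM. The 10 endothelial markers were at 67.6, 69.1 and 60.8 CPM in sum and 8 macrophage markers at 27.1, 8.39 and 15.2 CPM. Their part in the Icam1 levels was not tested.

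Icam1 in smooth muscle-like cells was low, with 9.22, 4.95 and 9.07 CPM. There APOE3 was the lowest library, by a log2 ratio of 0.90 for APOE2 to APOE3 and of 0.87 for APOE4 to APOE3, while APOE4 to APOE2 was at -0.02. In endothelial-like cells Icam1 was at 306 (277 to 337), 243 (178 to 325) and 332 (255 to 425) CPM, and all 3 log2 ratios had intervals that included 0. Of the APOE3 UMIs 28 of 46 lay in 1 cell, and of the APOE4 UMIs 36 of 63. With the top cell of each library left out, Icam1 was at 284, 100 and 166 CPM, highest in APOE2. In macrophage-like cells it was at 97.4, 103 and 122 CPM. The smooth muscle-like value for APOE4 to APOE2 covers cells of different positions along the aorta, in shares that differed between these libraries, and it was 0.80 (0.60 to 1.00) in cells with Hand2 and no Hox UMI. The difference between fibroblast-like and smooth muscle-like cells was not tested.

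Vcam1, for the ligand of the integrin VLA-4 on monocytes and lymphocytes, was spread over all 3 wall classes. In fibroblast-like cells it differed little, with 219 (212 to 227), 208 (198 to 218) and 200 (192 to 208) CPM and log2 ratios of 0.08, -0.06 and -0.13 for APOE2 to APOE3, APOE4 to APOE3 and APOE4 to APOE2. The share of thinned cells with a UMI was 14.0%, 14.2% and 14.9%. In the same fibroblast-like cells in which Icam1 differed between the libraries, Vcam1 thus moved little.

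In smooth muscle-like cells Vcam1 was at 136 (133 to 138), 117 (115 to 120) and 61.9 (60.4 to 63.5) CPM. APOE4 was lower than APOE3 by a log2 ratio of -0.92 (-0.97 to -0.88) and lower than APOE2 by -1.13 (-1.17 to -1.09). With each cell classed by its own markers the first ratio was -0.56, which is within 1.5-fold, and the second was -2.01. The second ratio was -2.33 at a clustering resolution of 0.4, where 295 of the 299 C19 cells fell into a smooth muscle-like cluster. These levels were carried by few cells, since the 10% of cells with the most Vcam1 held 93.2%, 93.7% and 92.0% of its UMIs. Cells with at least 10 UMIs numbered 269 of 7291, 141 of 4145 and 107 of 5512, and 1 APOE3 cell held 1563 of 10181 UMIs. Without that cell APOE3 was at 99.4 CPM, and with the top cell of each library left out the ratio of APOE4 to APOE3 was -0.75. Endothelial markers in these cells summed to 41.2, 32.1 and 32.3 CPM and macrophage markers to 12.2, 3.17 and 5.88 CPM, and their part in the Vcam1 levels was not tested.

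Among the smooth muscle-like clusters, C12 stood above the class level of Vcam1 in each library, whereas C16 and C9 did so only in some. In C12, with 378, 228 and 306 cells and led by Nrgn, Ttc9 and Mgp, Vcam1 was at 688, 973 and 467 CPM. In C16, with 258, 118 and 210 cells, it was at 838, 285 and 39.3 CPM, and in C9 at 283, 37.6 and 68.1 CPM. APOE4 was below APOE3 in C12 and C16 and above it in C9. In C2, which held 1643 of the APOE2 smooth muscle-like cells against 326 and 425 in APOE3 and APOE4, Vcam1 was at most 35.0 CPM in any library. C16 of APOE2 was also where Icam1 was highest among these clusters, at 67.7 CPM against 8.19 and 20.9.

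**Figure D3:**
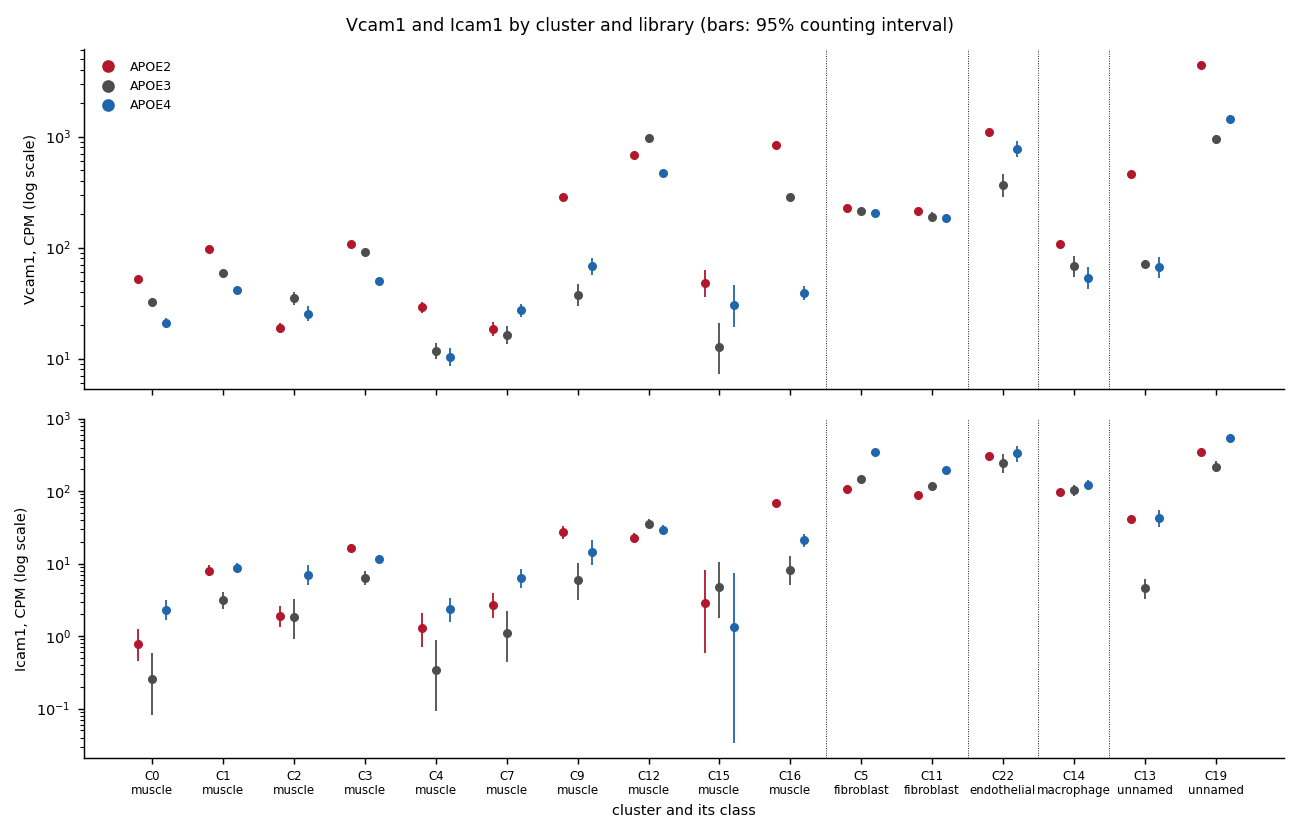
Vcam1 and Icam1 in CPM by cluster and genotype library. In C19 Vcam1 reached 4372 CPM in APOE2, while Icam1 was high both in C19 and in the fibroblast-like clusters C5 and C11, where APOE4 was above APOE2 and APOE3.

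Vcam1 in endothelial-like cells had another order. Its APOE2 level was 1094 (1038 to 1152) CPM, its APOE3 level 365 (284 to 462) and its APOE4 level 781 (660 to 917), from 1442, 69 and 148 UMIs. Log2 ratios were 1.58 (1.23 to 1.95) for APOE2 to APOE3, 1.10 (0.67 to 1.53) for APOE4 to APOE3 and -0.49 (-0.74 to -0.24) for APOE4 to APOE2. Of the APOE2 UMIs 316 lay in 1 cell and of the APOE3 UMIs 22, and of the 148 APOE4 UMIs 57 lay in 1 cell. Without the top cell the levels were 906, 261 and 541 CPM. APOE3 was thus the lowest library for Vcam1 in endothelial-like cells and APOE4 the lowest in smooth muscle-like cells. Smooth muscle markers in the endothelial-like cells summed to 4928, 1418 and 1577 CPM, and lymphatic markers to 930, 122 and 5.27 CPM, both highest in APOE2, and their part in these values was not tested.

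Icam2, for the ICAM that resting endothelium carries without activation, was at 382 (350 to 417), 259 (192 to 343) and 406 (320 to 508) CPM in endothelial-like cells. Smooth muscle-like cells held only 57, 20 and 26 UMIs of it, or 0.529, 0.231 and 0.272 CPM. In fibroblast-like cells it was at 3.83 (2.91 to 4.95), 8.85 (6.98 to 11.1) and 4.80 (3.60 to 6.28) CPM, highest in APOE3. Relative to APOE3, APOE2 was thus higher in smooth muscle-like cells, with a log2 ratio of 1.20, and lower in fibroblast-like cells, with -1.21, both from few UMIs.

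Pecam1, for the homophilic border molecule CD31, was at 1344 (1282 to 1408), 841 (715 to 982) and 1155 (1007 to 1318) CPM in endothelial-like cells. APOE3 was the lowest, by log2 ratios of 0.68 for APOE2 to APOE3 and 0.46 for APOE4 to APOE3. The first of these was 0.0897 with each cell classed by its own markers and 1.31 as a mean of each cell's CPM. Without thinning, a Pecam1 UMI was found in 108 of 153 APOE2, 10 of 32 APOE3 and 20 of 39 APOE4 endothelial-like cells. Of the APOE3 UMIs 57 of 159 lay in 1 cell, and of the APOE4 UMIs 67 of 219. Without the top cell of each library the levels were 1278, 672 and 903 CPM. Smooth muscle-like cells had Pecam1 at 32.0, 25.2 and 35.7 CPM, from 3446, 2188 and 3416 UMIs, and in fibroblast-like cells at 41.2, 41.6 and 55.9 CPM. Endothelial Cdh5 had 26, 1 and 1 UMIs in the same smooth muscle-like cells. In endothelial-like cells Pecam1 had 454, 398 and 365 UMIs for every 100 of Cdh5, and the part of endothelial RNA in the Pecam1 level of smooth muscle-like cells was not tested.

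Esam, for the endothelial cell-selective adhesion molecule, was at 467 (431 to 506), 254 (187 to 337) and 290 (219 to 378) CPM in endothelial-like cells, highest in APOE2. Its level in smooth muscle-like cells was lowest in APOE2, with 17.6 (16.8 to 18.4), 25.7 (24.7 to 26.8) and 23.3 (22.3 to 24.3) CPM. F11r, for JAM-A, was at 218 (193 to 244), 111 (68.8 to 170) and 148 (98.1 to 213) CPM in endothelial-like cells and at 16.0, 14.6 and 14.7 CPM in smooth muscle-like cells. The endothelial-like levels of both genes were highest in APOE2, and only in that library did they rest on over 100 UMIs.

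Jam2 and Jam3, which encode the binding partners JAM-B and JAM-C, had different distributions. Jam2 was at 191 (168 to 216), 132 (85.6 to 195) and 221 (160 to 299) CPM in endothelial-like cells, at 51.6, 51.6 and 43.2 CPM in fibroblast-like cells and at 5.25, 5.50 and 3.49 CPM in smooth muscle-like cells, where APOE4 was the lowest with a log2 ratio to APOE3 of -0.66, or of -0.56, within 1.5-fold, with scaling by the median ratio. Jam3 was at 61.1 (59.6 to 62.5), 80.0 (78.1 to 81.9) and 67.4 (65.8 to 69.1) CPM in smooth muscle-like cells and at 40.8, 49.7 and 40.6 CPM in fibroblast-like cells. In endothelial-like cells it had 27, 15 and 5 UMIs, or 20.5, 79.3 and 26.4 CPM. A UMI of Jam3 was found in 54.3%, 73.7% and 63.3% of smooth muscle-like cells without thinning, at their medians of 13357, 19839 and 15324.5 UMIs. No other member had a UMI in so large a share of these cells.

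**Figure D4:**
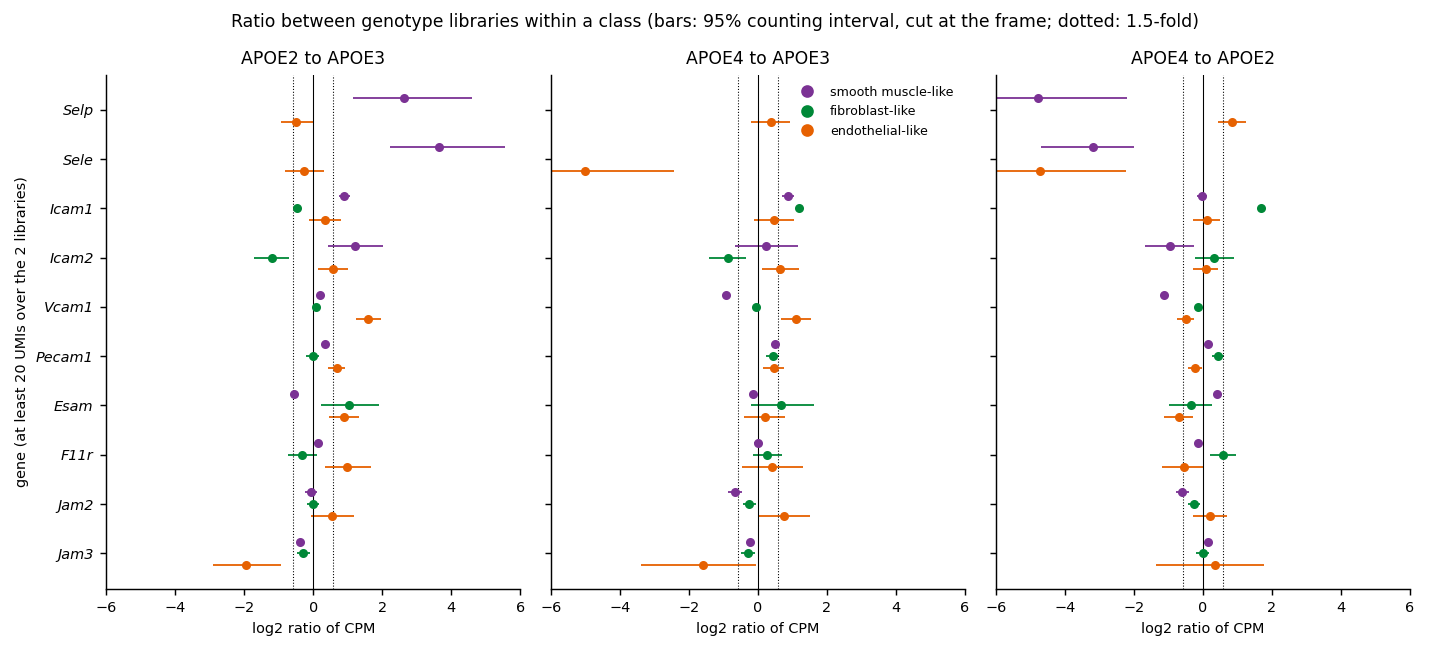
Log2 ratio of CPM between the libraries for each adhesion gene with at least 20 UMIs over both, in smooth muscle-like, fibroblast-like and endothelial-like cells, with 95% counting intervals and dotted lines at 1.5-fold. Icam1 in fibroblast-like cells lay at 1.20 for APOE4 to APOE3 and at 1.67 for APOE4 to APOE2, and Vcam1 in smooth muscle-like cells at -0.92 and -1.13.

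The members were counted beside all genes measured in the same class. A gene was counted when it had at least 20 UMIs over both libraries and differed by at least 1.5-fold in either direction. In smooth muscle-like cells this held for 4 of 10 members for APOE2 to APOE3, beside 15.1% of all genes measured, for 3 of 8 for APOE4 to APOE3, beside 14.9%, and for 5 of 10 for APOE4 to APOE2, beside 20.8%. The 4 were Selp, Sele, Icam1 and Icam2, all higher in APOE2, and the 5 were Selp, Sele, Icam2, Vcam1 and Jam2, all lower in APOE4. The 3 were Icam1, which was higher in APOE4, and Vcam1 and Jam2, which were lower. Selp, Sele and Icam2 had at most 62 UMIs of each in any library there. Endothelial Cdh5 had 26, 1 and 1 UMIs in the same cells of APOE2, APOE3 and APOE4, and the part of endothelial RNA in these 3 genes was not tested. The median log2 ratio of the members was 0.28, -0.07 and -0.36 in the 3 comparisons, beside 0.05, -0.07 and -0.11 over all genes measured.

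In fibroblast-like cells 2 of 8 members passed 1.5-fold for APOE2 to APOE3, beside 15% of genes, 3 of 8 for APOE4 to APOE3, beside 15.3%, and 2 of 8 for APOE4 to APOE2, beside 18.3%. Their median log2 ratios were -0.15, 0.11 and 0.16, beside -0.01, -0.10 and -0.06. In endothelial-like cells 5 of 10, 5 of 10 and 3 of 10 members passed, but so did 40.2%, 32.6% and 39.2% of all genes. With at least 50 UMIs required, these shares of all genes were 32.3%, 24.3% and 31.4%. The endothelial-like shares were near their background, and nothing is read from them about the members as a group. In macrophage-like cells 3 of 6, 2 of 5 and 4 of 7 members passed, beside 25%, 23.5% and 26% of genes.

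Genes of NF-kB and cytokine response were measured beside Icam1 in fibroblast-like cells. Of 12 such genes, 7 were at least 1.5-fold higher in APOE4 than in APOE3 and none was lower, beside 15.3% of all genes past that limit in either direction and 1128 of 13670 higher. Their median log2 ratio was 0.77, beside -0.10 over all genes. Cxcl1, a neutrophil chemokine, went from 160 CPM in APOE3 to 454 in APOE4, with a log2 ratio of 1.50. Nfkbia, for the inhibitor of NF-kB, went from 523 to 1130 CPM, and Nfkb1, for a subunit of NF-kB, from 199 to 430 CPM. Against APOE2, in contrast, 3 of the 12 were higher in APOE4 and 3 lower, beside 18.3% of all genes in either direction, with a median of 0.41, and Ccl2, for a monocyte chemokine, was among the lower with 52.2 CPM in APOE4 and 132 in APOE2. For APOE2 to APOE3 in fibroblast-like cells, 3 of the 12 were higher in APOE2 and 1 lower, beside 15% of all genes in either direction. The median of the 12 was 0.18 there, beside -0.01, whereas Icam1 was lower in APOE2 than in APOE3. Among smooth muscle-like cells 6 of the 12 genes were higher in APOE4 than in APOE3 and none lower, beside 14.9% of all genes in either direction and 1706 of 16372 higher. Their median was 0.44, beside -0.07.

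Not all of the leukocyte receptors that bind these ligands had enough UMIs in wall cells to be compared. Of 12 counter-receptor genes 5 were measured in fibroblast-like cells for APOE4 to APOE3, 2 of them higher, 1 lower and 2 within 1.5-fold, beside 15.3% of all genes past it. For smooth muscle-like cells 8 were measured for APOE4 to APOE2, with 3 higher and 3 lower, beside 20.8% of all genes past 1.5-fold. Itga4, for the alpha chain of VLA-4, was among the lower, at 3.66 CPM in APOE4 and 12.4 in APOE2. Of 15 other adhesion and transmigration genes 12 were measured there, with 2 higher and 3 lower, beside the same 20.8%. Among them Mcam, for CD146, was at 204 CPM in APOE4 and 128 in APOE2, and Cd34 at 3.68 and 10.8 CPM.

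The position along the aorta was read from 2 kinds of transcription factor gene, since Hand2 marks smooth muscle of the arch and Hox genes mark that of the descending aorta. Smooth muscle-like cells with a Hand2 UMI and no UMI of the 6 Hox genes numbered 3231 in APOE2, 1268 in APOE3 and 1063 in APOE4, and cells with the reverse 1191, 1136 and 2060. The mix of positions thus differed between the libraries. For APOE4 to APOE2, 6 of 6 Hox genes were at least 1.5-fold higher in smooth muscle-like cells, with a median log2 ratio of 0.94, beside 20.8% of all genes in either direction and 1590 of 16867 higher.

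Several members differed with position in the same direction in all 3 libraries. Icam1 was higher in Hand2 cells, by log2 ratios of 0.91, 0.97 and 1.80 in APOE2, APOE3 and APOE4. Pecam1 was higher in Hox cells, with ratios of Hand2 to Hox cells of -1.38, -0.98 and -0.49, and so were Esam with -1.22, -1.25 and -0.76 and Jam3 with -0.35, -0.41 and -0.31. Jam2 was at 0.04, 0.06 and 0.07, with intervals that included 0. F11r, another junction gene, was on the side of Icam1, with 0.26, 0.57 and 0.14, where the APOE4 interval included 0. Pecam1, Esam and Jam3 were thus higher in Hox cells of each library and Icam1 in Hand2 cells, and the junction genes did not share 1 direction.

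Vcam1 had no common direction by position, with log2 ratios of Hand2 to Hox cells of 0.29, -0.94 and 1.18. In Hand2 cells it was at 127, 94.3 and 81.9 CPM in APOE2, APOE3 and APOE4, and in Hox cells at 104, 181 and 36.3 CPM. The log2 ratio of APOE4 to APOE3 was -0.20 (-0.29 to -0.12) in Hand2 cells and -2.32 (-2.41 to -2.23) in Hox cells. The APOE3 cell with 1563 UMIs was a Hox cell, and with the top cell of each library left out the Hox ratio was -1.87. Vcam1 was thus lower in APOE4 than in APOE3 at both positions, and by more in Hox cells. For Icam1 the ratio of APOE4 to APOE2 was 0.80 (0.60 to 1.00) in Hand2 cells and -0.09 (-0.48 to 0.30) in Hox cells, although it was -0.02 over all smooth muscle-like cells.

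**Figure D5:**
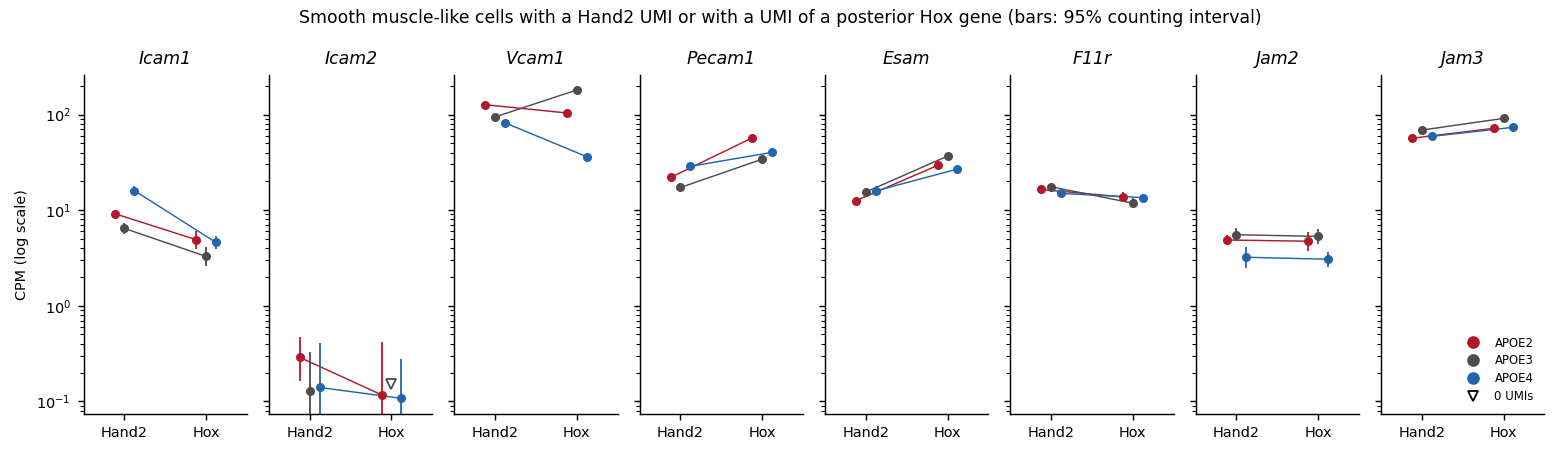
Level in CPM of 8 adhesion genes in smooth muscle-like cells with a Hand2 UMI and no Hox UMI and in those with a Hox UMI and no Hand2 UMI, by genotype library (log axis), with 95% counting intervals that are cut at the frame for Icam2. For 0 UMIs an open triangle marks the upper end of the 95% counting interval. Pecam1, Esam and Jam3 were higher in Hox cells and Icam1 in Hand2 cells in each of the 3 libraries, and Vcam1 was at 181 CPM in Hox cells of APOE3 and 36.3 CPM in those of APOE4.

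The endothelial-like cells were themselves of more than 1 kind, and the members differed between the kinds. A UMI of Gpihbp1, the capillary protein that anchors lipoprotein lipase, was found in 42 of 153 APOE2 cells, 2 of 32 APOE3 cells and 5 of 39 APOE4 cells. In APOE2, cells with this UMI had Vcam1 at 140 CPM against 1392 in cells without it, Selp at 6.37 against 235, Sele at 3.18 against 183 and Pecam1 at 659 against 1558. Icam1 was at 382 against 282 CPM and Esam at 592 against 428. Of the large artery genes read here, Bmx and Gja5 were at 9.55 and 0 CPM in cells with the UMI and at 291 and 130 CPM in cells without. Sox17, of the same list, was not lower in cells with the UMI, at 143 against 115 CPM with overlapping intervals. Other endothelial genes of these APOE2 cells did not share 1 direction. Of the venous genes, Vwf was at 73.3 CPM in cells with the UMI and 544 in cells without. Nr2f2 and Ackr1, of the same list, went the other way, at 188 against 49.8 CPM and 54.1 against 12.9 CPM. Prox1 was at 150 CPM in cells with the UMI and lower in cells without. In APOE2 the selectins and Vcam1 were thus higher in the cells without Gpihbp1. Bmx, Gja5 and Vwf were higher in these cells too, but Sox17, Nr2f2, Ackr1 and Prox1 were not. In APOE4, Vcam1 was also lower in cells with the UMI, at 309 against 928 CPM, but Selp was higher in them, at 905 against 146 CPM, and so was Icam1, at 927 against 146 CPM. These 5 APOE4 cells held 41 of the 62 Selp UMIs, 40 of them in 1 cell. Both APOE3 cells with the UMI had 0 UMIs of Selp, Sele and Vcam1. This division was chosen after the values were seen.

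Endothelial-like cells also most often held several members at once. At least 5 of the 10 genes had a UMI in 76 of 153 APOE2 cells (49.7%), 7 of 32 APOE3 cells (21.9%) and 12 of 39 APOE4 cells (30.8%). The share was 1.81%, 2.56% and 1.89% in smooth muscle-like cells and 5.18%, 4.39% and 5.61% in fibroblast-like cells, although both classes were deeper. Yet 18.3%, 40.6% and 23.1% of endothelial-like cells held no member at all. This share was 21.3%, 11.5% and 15.3% in smooth muscle-like cells and 10.0%, 5.90% and 7.24% in fibroblast-like cells. None of these shares was thinned, and the endothelial-like medians were 4706, 3322.5 and 3351 UMIs in APOE2, APOE3 and APOE4.

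Members were also found in blood-derived classes. Macrophage-like cells had Vcam1 at 108, 68.5 and 53.3 CPM and Pecam1 at 12.8, 11.8 and 25.6 CPM. T lymphocyte-like cells had Vcam1 at 1096, 855 and 595 CPM, but these rested on 7, 5 and 6 cells with at least 10 UMIs, the highest of which held 493, 185 and 266 UMIs. Smooth muscle markers summed to 13025, 7990 and 16100 CPM in T lymphocyte-like cells. In macrophage-like cells they summed to 6177, 13706 and 9558 CPM. The part of wall cell RNA in the levels of these classes was not tested. B lymphocyte-like cells, 34, 9 and 271 in number, had Pecam1 at 72.1, 67.1 and 116 CPM and Icam2 at 34.7 CPM in APOE4. In neutrophil-like cells of APOE2, 1 cell held 499 UMIs of Vcam1 and 1 cell held 77 of Sele.

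The genes whose levels were most like those of each member were found over 20 sums by class and library with at least 20 cells each, by Pearson correlation of log2(CPM + 1) among 14782 genes with at least 200 UMIs. The sums share libraries and depth, so the values are descriptions. Pecam1 and Icam2 were each other's nearest gene, with r = 0.94. Selp was nearest to Elovl7 and C1qtnf9 (both 0.94), Sele to Tbc1d2 (0.93) and Nos2 (0.92), and Vcam1 to Cx3cl1 (0.89), the gene of the chemokine fractalkine. Icam1 was nearest to Rbms1 (0.95), Esam to Hid1 (0.94), F11r to Rapgef5 (0.92), Jam2 to Bmp4 (0.96) and Jam3 to Angpt2 (0.97). Among the members, Selp and Sele correlated at 0.85 and Pecam1 and Esam at 0.88, while Selp and Jam3 were at 0.09.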

How the data were processed

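Whole-aorta cells were pooled by genotype and run as 1 droplet library each. Per the authors' notes and the file headers, Cell Ranger 7.0.1 mapped the reads to mm10 (GRCm38), and raw UMI counts per gene and barcode were deposited. Every other value was derived here.

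Barcodes with at least 200 genes and under 20% mitochondrial UMIs were kept. Each library was normalized with sctransform 0.4.2 and integrated in Seurat 5.3.0 (R 4.3.3) over 3000 features and 30 components, without the 10 adhesion genes and the related lists, and clustered at resolution 0.8. A cluster was named when at least 3 markers of a list were detected in 10% of its cells and raised 2-fold. Smooth muscle-like clusters had to keep 8 of 10 markers at no less than 50% of the level over every cell. Scrublet in scanpy 1.11.5 called at most 0.036% of the cells of a library and had not worked, so doublets were kept.

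UMIs were summed by class and library with Python 3.11.15, numpy 2.4.6, scipy 1.17.1 and pandas 2.3.3. Levels carry exact Poisson intervals, ratios exact conditional binomial intervals and shares Clopper-Pearson intervals, all at 95% and for counting error only. A count of 0 allows up to 3 counts. Shares given as thinned were taken after thinning to 1000 UMIs per cell. All other shares and counts of cells with a UMI are unthinned, so depth can differ between the libraries compared. The interval computation was tested on simulated Poisson counts, the model that the intervals assume. The simulation held no clumping of UMIs in single cells, so it cannot show whether the intervals are wide enough for these data. All 10 members were named, and from related lists the 3 largest ratios past 1.5-fold whose interval left out 0, of which examples are given. The members and lists were chosen with earlier results of these data known. Alternatives changed the filters, clustering, scaling, thinning and limits.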

Additional observations from a re-analysis of the deposited data

Results flagged for a closer look

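In 4 comparisons the ratio of a gene lay past 1.5-fold in opposite directions in 2 classes, with counting intervals that left out 0. The difference between the classes was not tested, since each genotype had 1 library. Vcam1 for APOE4 to APOE3 was at a log2 ratio of -0.92 in smooth muscle-like cells and 1.10 in endothelial-like cells. The first of these was -0.56, within 1.5-fold, with each cell classed by its own markers. Icam2 for APOE2 to APOE3 was at 1.20 in smooth muscle-like cells, from 57 and 20 UMIs, and at -1.21 in fibroblast-like cells, from 58 and 76 UMIs. Icam2 for APOE4 to APOE3 was at -0.88 in fibroblast-like cells and 0.65 in endothelial-like cells. Selp for APOE4 to APOE2 was at -4.78 in smooth muscle-like cells, from 1 and 31 UMIs, and at 0.86 in endothelial-like cells, where 40 of the 62 APOE4 UMIs lay in 1 cell.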

How the results depend on the processing

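No paired analysis was possible because each genotype had 1 library and the ratios come from no test. Over 100 log2 ratios and their alternatives, 1094 values stayed within the counting interval of the main ratio and 127 fell outside it. A change of sign was counted only for the 35 ratios past 1.5-fold with an interval that left out 0. There 5 values changed sign, in 3 results. Changes of sign in the other ratios are not counted apart. Of the alternatives for levels, 529 stayed within the main interval and 101 fell outside it, and for shares 33 stayed and 147 fell outside. Of those for the number of members past the limit, 12 stayed within 1.5-fold of the main number and 12 did not. Leaving out the top cell of a gene, Gpihbp1 cells, cells over 80000 UMIs or C19, and adding unnamed clusters to smooth muscle-like cells, were chosen after seeing the data. With cells over 80000 UMIs left out, all 100 ratios stayed within the counting interval of the main ratio. These ratios cover smooth muscle-, fibroblast-, endothelial- and macrophage-like cells only. Of the cells over 80000 UMIs, however, 46 of 52 in APOE2 and 2 of 3 in APOE3 lay in unnamed C13, and APOE4 had 0. This alternative could thus hardly move the ratios, and nothing is read from it about deep cells. The causes of the movements below were not tested. Few endothelial-like cells limit what depth can show in that class.

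Vcam1 in smooth muscle-like cells for APOE4 to APOE3 was at -0.56 with each cell classed on its own, which is within 1.5-fold, -0.76 at resolution 0.4, -0.78 with unnamed clusters that kept smooth muscle markers added, -0.76 as a mean of each cell's CPM, -0.83 with scaling by the median ratio and -0.75 without the top cell. For APOE4 to APOE2 it was at -2.01 with each cell classed on its own, -2.33 at resolution 0.4, -1.28 without integration, -1.45 with unnamed clusters added and -1.02 with median scaling. Icam1 in fibroblast-like cells was at 1.30 for APOE4 to APOE3 with median scaling, and for APOE4 to APOE2 at 1.15 with each cell classed on its own and 1.57 as a mean of each cell's CPM. Its shares were 19.9%, 24.5% and 42.6% at 3000 UMIs and 47.6%, 50.7% and 64.9% unthinned.

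In endothelial-like cells Selp for APOE4 to APOE2 turned to -0.63 without cells with at least 100 smooth muscle UMIs, -0.69 without Gpihbp1 cells and -0.13 without the top cell. Vcam1 was at 1.00 for APOE2 to APOE3 with each cell classed on its own and at 1.6 for APOE4 to APOE3 as a mean of each cell's CPM. Pecam1 for APOE2 to APOE3 was at 0.0897 with each cell classed on its own, 1.31 as a mean of each cell's CPM and 0.93 without the top cell. With each cell classed on its own, Jam3 turned to 0.31 for APOE4 to APOE3 there and to 0.93 for APOE2 to APOE3 in macrophage-like cells.

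At 2-fold, the members past the limit for APOE2 to APOE3, APOE4 to APOE3 and APOE4 to APOE2 numbered 1, 1 and 1 of 8 in fibroblast-like cells, beside 5.48%, 5.71% and 7.59% of all genes. In endothelial-like cells they numbered 2, 3 and 1 of 10, beside 18.3%, 12.6% and 18.1%. In smooth muscle-like cells they numbered 3 of 10 for APOE2 to APOE3, beside 6.08%, 0 of 8 for APOE4 to APOE3, beside 5.92%, and 3 of 10 for APOE4 to APOE2, beside 9.66%. With at least 50 UMIs, 3 of 7 passed 1.5-fold in endothelial-like cells for APOE4 to APOE3, beside 24.3% of all genes. Over all cells Vcam1 was at 348 CPM in APOE2 without the 5% highest doublet scores and at 182, 111 and 76.9 CPM without C19.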
